A study of Homo sapiens with 8 samples.

Results

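Genes that the EWS/FLI1 fusion protein activates in Ewing Sarcoma were followed in A673 cells treated with JIB-04. The genes are NR0B1, NKX2-2, STEAP1, CCK, PPP1R1A, PRKCB, CAV1, FCGRT, BCL11B and VRK1, chosen by name as 10 of the 65962 genes used from the table, and each name matched 1 gene identifier. All 10 had a mean of at least 1 FPKM (read fragments scaled by transcript length and by the size of the library) over the 8 libraries and were tested. A673 is an established Ewing Sarcoma cell line, and JIB-04 is a small molecule inhibitor of the Jumonji-domain histone demethylases. One group of 4 samples received 2 μM JIB-04 and the other group of 4 received vehicle (DMSO), each for 36 hours. The data therefore come from 1 cell line, 1 dose and 1 time. The methods say that each group was treated as quadruplicates, without saying whether these were separate cultures, and p-values here reflect the spread among these samples alone, which may be technical.

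EWS/FLI1 joins the activation domain of EWSR1 to the ETS DNA-binding domain of FLI1. ETS proteins bind DNA around the core GGAA, and the fusion has the further property of binding runs of GGAA repeats (microsatellites), from which it activates genes that the normal counterpart of these cells keeps silent. NR0B1, NKX2-2 and STEAP1 are well-known examples and serve as markers of the tumor. The fusion represses another set of genes, among them brakes on growth and genes of mesenchymal adhesion.

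The promoters of 8 of the 10 genes were read for the GGAA core, since it is the element the fusion recognizes. The RefSeq (GRCh38.p14) start sites at hand covered NR0B1, NKX2-2, STEAP1, CCK, PRKCB, CAV1, FCGRT and BCL11B. None was at hand for PPP1R1A and VRK1, so their promoters were not read. The windows of NKX2-2 and FCGRT lie wholly inside the gene coordinates given below, which are from GENCODE. In the 250 bases before the start, NR0B1 and FCGRT held 5 GGAA cores on either strand (GGAA or TTCC, overlapping matches counted), STEAP1 and CAV1 held 4, CCK held 1, and NKX2-2, PRKCB and BCL11B held none. Over all 35116 RefSeq windows of the same length, the median was 3 cores (quartiles 2 and 4), 92.7% held at least 1, and 7.26% held none. The ETS consensus CCGGAAGT (or ACTTCCGG) was in none of the 8 and in 3.42% of all windows. TATAAA (or TTTATA) was in the windows of NR0B1 and NKX2-2 and in 10.7% of all windows. A match is a description of the letters and not evidence of binding, and repeats farther from the start are not in these windows.

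The stretches below, 5′ to 3′ on the gene's strand, are shown because they span this range: a cluster of cores in NR0B1, 1 core in CCK, which had the largest rise, none in PRKCB, which fell, and none in BCL11B, which rose. Each stretch is only the part of the 250-base window that lies outside the GENCODE gene. That of NR0B1 covers -250 to -209 from its RefSeq start at 30309390, so it holds only some of the 5 cores of the window. Capitals mark GGAA or TTCC. They lie at chrX:30309599-30309640 (minus strand), chr3:42266208-42266435 (minus), chr16:23835733-23835945 (plus), and chr14:99272198-99272447 (minus) of GRCh38.
NR0B1: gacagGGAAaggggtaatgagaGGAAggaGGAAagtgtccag
CCK: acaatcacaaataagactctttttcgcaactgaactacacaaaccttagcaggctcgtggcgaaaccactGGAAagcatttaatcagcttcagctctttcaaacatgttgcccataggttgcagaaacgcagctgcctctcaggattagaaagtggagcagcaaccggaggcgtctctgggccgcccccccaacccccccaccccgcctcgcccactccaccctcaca
PRKCB: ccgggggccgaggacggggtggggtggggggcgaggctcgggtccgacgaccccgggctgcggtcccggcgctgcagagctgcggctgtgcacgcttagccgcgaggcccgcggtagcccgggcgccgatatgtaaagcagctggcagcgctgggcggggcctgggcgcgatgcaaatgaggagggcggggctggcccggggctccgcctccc
BCL11B: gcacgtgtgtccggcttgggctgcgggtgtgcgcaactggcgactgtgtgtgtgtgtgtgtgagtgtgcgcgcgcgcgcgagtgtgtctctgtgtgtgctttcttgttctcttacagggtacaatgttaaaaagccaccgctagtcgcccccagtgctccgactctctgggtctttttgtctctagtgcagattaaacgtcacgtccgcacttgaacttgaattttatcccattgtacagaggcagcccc

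Of the 10 genes, 2 were higher with JIB-04 (CCK and BCL11B), 6 were lower (PPP1R1A, NKX2-2, PRKCB, FCGRT, STEAP1 and CAV1) and 2 did not pass the test (NR0B1 and VRK1). The test was limma on log2(FPKM + 0.5) with Benjamini-Hochberg adjustment over the 17460 genes that reached a mean of 1 FPKM, and a gene was called at an adjusted p under 0.05. Of those 17460 genes, 72.2% were called, 34.2% as higher and 38.0% as lower, so that 8 called of 10 is close to the share among all genes. At least 2-fold, CCK was higher and PPP1R1A lower, so that 2 of the 10 moved this far, where 24.9% of all genes did, 13.1% higher and 11.8% lower. The 10 genes had a median log2 fold change of -0.20, and that of all tested genes was -0.07. The libraries of the 2 groups did not overlap for 8 of the 10 genes, and for 67.3% of all tested genes.

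**Figure D1:**
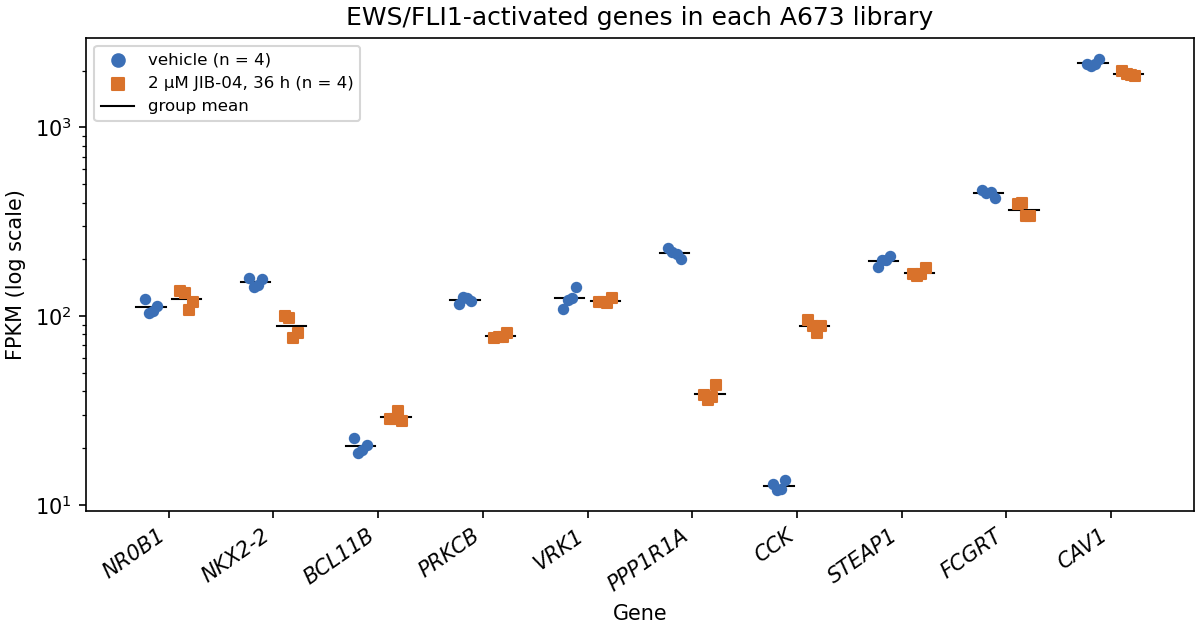
FPKM (log axis) of each of the 10 genes in each library, with vehicle as circles, JIB-04 as squares and bars at the group means (n = 4 per group). CCK moved up and PPP1R1A down by the widest margins, from means of 12.6 to 88.8 and of 216 to 38.6 FPKM, while NR0B1 and VRK1 overlapped between the groups.

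The scale bears on the smaller of these differences. The deposited FPKM summed to 1346289 to 1370436 in the vehicle libraries and to 1175407 to 1237186 in the JIB-04 libraries, and mitochondrially encoded messenger RNAs took 9.60% to 10.2% of it in vehicle and 3.60% to 4.33% with JIB-04. Rescaling to TPM, so that each library has the same sum, moved the median over all tested genes up by 0.15 on the log2 scale, to 0.08. On that scale 3 of the 10 genes were higher (CCK, BCL11B and NR0B1), 3 were lower (PPP1R1A, NKX2-2 and PRKCB) and 4 did not pass (STEAP1, CAV1, FCGRT and VRK1), so that 6 of 10 were called where 71.5% of all genes were, 40.4% higher and 31.1% lower. The median of the 10 genes was then -0.04. Changes in sum and in mitochondrial RNA went with the treatment in all 8 libraries, and their part in the results was not tested.

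The label of Ewing Sarcoma cells was checked on 4 markers, CD99, FLI1, NKX2-2 and NR0B1, which had vehicle means of 1160, 60.4, 151.2 and 111 FPKM. Of 11 markers of epithelial, blood, endothelial, muscle and neural cells, 5 (EPCAM, PTPRC, VWF, MYOD1 and DES) stayed under 1 FPKM in every library, with MYOD1 listed at 0 in all vehicle libraries. The summed level of the 11 was 327 to 350 FPKM in vehicle and 330 to 347 FPKM with JIB-04, most of it KRT18, and within it KRT8, SNAP25 and ITGAM rose (log2 fold changes 1.604, 1.76 and 1.84) and KRT18 fell (-0.31). CHGA did not pass (-0.16, limma adjusted p = 0.129). PECAM1, an endothelial marker, had means of 0.568 FPKM (vehicle) and 1.29 FPKM (JIB-04). Its mean over all libraries was under 1 FPKM, so it was not tested. ITGAM, with means of 0.296 FPKM (vehicle) and 2.39 FPKM (JIB-04), reached the filter only through the JIB-04 libraries. The part of these markers in the results was not tested. In bulk RNA, fewer cells expressing a gene and less RNA per cell cannot be told apart.

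Of the 3 transcription regulators, NKX2-2 fell, BCL11B rose and NR0B1 did not pass the test. NR0B1 (ENSG00000169297, chromosome X, 30304206 to 30309598, minus strand) encodes DAX1, an orphan nuclear receptor that lacks the usual DNA-binding domain, acts mainly as a corepressor and is required for growth of Ewing Sarcoma cells. It had 123, 103.5, 106 and 113 FPKM in vehicle replicates 1 to 4 and 136, 133, 108 and 119 FPKM in JIB-04 replicates 1 to 4. Of the JIB-04 libraries, 2 lay above all vehicle libraries and the other two lay within the vehicle range. The log2 fold change was 0.15 (standard error, SE, 0.08, 95% interval -0.04 to 0.34, limma adjusted p = 0.129), and an exact two-sided permutation test gave p = 0.171. On the TPM scale the rise passed (log2 fold change 0.32, limma adjusted p = 0.00455). It also passed when JIB-04 replicate 3 was left out (log2 fold change 0.22, limma adjusted p = 0.031). Falls of the size seen for NKX2-2 and PRKCB lie outside the 95% interval. NR5A1 and NR5A2, receptors that DAX1 represses, and NR0B2, its closest relative, were each under 0.1 FPKM on average in both groups, with NR0B2 listed at 0 in every library.

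NKX2-2 (ENSG00000125820, chromosome 20, 21511010 to 21514026, minus strand) encodes a homeodomain repressor that shuts down mesenchymal genes on behalf of the fusion and is used to diagnose the tumor. Its values were 159, 143, 145.5 and 157 FPKM in vehicle and 100.3, 98.0, 76.3 and 80.95 FPKM with JIB-04. Every JIB-04 library lay below every vehicle library, and JIB-04 replicates 1 and 2 were higher than replicates 3 and 4. The mean fell from 151.2 ± 8.33 to 88.9 ± 12.03 FPKM (group mean ± SD with n = 4, log2 fold change -0.77, SE 0.09, limma adjusted p = 4.91e-05), a 1.70-fold difference. The exact permutation p was 0.0286, the smallest that 4 against 4 samples allow, as for every gene here whose groups do not overlap. An antisense transcript, NKX2-2-AS1, overlaps the gene and averaged 0.253 FPKM in vehicle libraries and 0.150 FPKM in JIB-04 libraries. Of the repressor's relatives and corepressors, NKX2-5 did not pass (15.8 ± 1.72 and 15.7 ± 2.68 FPKM, limma adjusted p = 0.922), NKX2-1 was listed at 0, TLE3 rose (log2 fold change 0.90, limma adjusted p = 4.12e-05) and TLE1, with both group means under 2 FPKM, fell (-0.55, limma adjusted p = 0.0296), a call that was lost on the TPM scale (adjusted p = 0.082) and without vehicle replicate 2 or 4 or JIB-04 replicate 1 or 4 (adjusted p = 0.0523 to 0.0788).

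BCL11B (ENSG00000127152, chromosome 14, 99169287 to 99271524, minus strand) encodes a zinc finger regulator best known from T cell and neuron development. It was at 22.7, 18.8, 19.5 and 20.9 FPKM in vehicle and at 28.4, 28.6, 31.4 and 27.95 FPKM with JIB-04. The JIB-04 libraries were all above the vehicle libraries and closer to each other than to any of them. The rise was from 20.45 ± 1.71 to 29.1 ± 1.56 FPKM (log2 fold change 0.50, SE 0.07, limma adjusted p = 0.000175). Its paralog BCL11A was under 1 FPKM on average in both groups and was not tested.

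All 3 signaling genes are known for protein phosphorylation, and they differed: PPP1R1A fell most, PRKCB fell less, and VRK1 did not pass. PPP1R1A (ENSG00000135447, chromosome 12, 54575387 to 54588659, minus strand) encodes inhibitor-1, which blocks protein phosphatase 1 once protein kinase A has phosphorylated it, and which promotes growth and metastasis of Ewing Sarcoma cells in experimental models. It was at 229, 219, 214 and 201 FPKM in vehicle and at 38.4, 35.9, 37.2 and 43.0 FPKM with JIB-04. The lowest vehicle library was well above the highest JIB-04 library. The mean fell 5.59-fold, from 216 ± 11.4 to 38.6 ± 3.09 FPKM (log2 fold change -2.47, SE 0.07, limma adjusted p = 4.17e-09), which placed it at rank 94 among the falls of the 17460 genes. In vehicle it stood at the 93.95th percentile of tested genes by level and with JIB-04 at the 69.05th. PDE1B, on the other strand, overlaps PPP1R1A from 54575387 to 54579239 and moved the other way, from 9.84 ± 0.776 to 11.8 ± 0.976 FPKM (limma adjusted p = 0.0261). That call was lost without vehicle replicate 1 or 2 or JIB-04 replicate 1 or 2 (adjusted p = 0.06 to 0.0725) and with a replicate block (adjusted p = 0.0698). PDE1B was added after its values were seen.

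The 2 closest relatives of PPP1R1A moved in opposite directions. PPP1R1B, which encodes the related inhibitor DARPP-32, was at 19.3, 20.9, 20.6 and 20.6 FPKM in vehicle and at 1.31, 1.09, 1.13 and 1.10 FPKM with JIB-04 (log2 fold change -3.655, SE 0.08, limma adjusted p = 1.97e-09). PPP1R1C was at 0.530, 0.651, 1.035 and 2.03 FPKM in vehicle and at 8.57, 7.935, 11.4 and 7.27 FPKM with JIB-04 (log2 fold change 2.65, SE 0.28, limma adjusted p = 1.86e-05). The group therefore held 2 genes that fell and 1 that rose, and the gene that rose remained far below the vehicle level of PPP1R1A in FPKM. Of the catalytic subunits that these proteins inhibit, PPP1CA and PPP1CC fell (log2 fold changes -0.48 and -0.33) and PPP1CB rose (0.76, limma adjusted p = 1.53e-06). PRKACA, a catalytic subunit of protein kinase A, fell from 74.8 ± 1.82 to 40.4 ± 0.8498 FPKM (limma adjusted p = 1.02e-07), and for PRKACB, the other subunit read, the log2 fold change was 0.07 (limma adjusted p = 0.641), and -0.02 without vehicle replicate 1.

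PRKCB (ENSG00000166501, chromosome 16, 23835946 to 24220611, plus strand) encodes protein kinase C beta, a kinase activated by calcium and diacylglycerol that is directly induced by the fusion and needed for survival of Ewing Sarcoma cells. Its levels were 116.5, 126.5, 124 and 120.4 FPKM in vehicle and 76.3, 77.7, 77.2 and 81.8 FPKM with JIB-04. Both groups were tight and did not overlap. The mean fell 1.56-fold, from 122 ± 4.44 to 78.3 ± 2.42 FPKM (log2 fold change -0.64, SE 0.04, limma adjusted p = 1.03e-06). Of 5 other protein kinase C genes tested, 4 rose: PRKCA, another classical form, from 5.75 ± 0.373 to 14.9 ± 0.671 FPKM (log2 fold change 1.30), PRKCI, an atypical form, from 44.8 ± 6.91 to 79.6 ± 10.2 FPKM (0.83), and PRKCD and PRKCE, both under 3 FPKM on average. PRKCE, with a vehicle mean of 0.643 FPKM, reached the filter of 1 FPKM only through the JIB-04 libraries, so its rise is no support for the count. Of all tested genes, 34.2% were called higher. PRKCZ did not pass (limma adjusted p = 0.124), though it did on the TPM scale (adjusted p = 0.043) and without vehicle replicate 2 (adjusted p = 0.019), and PRKCH and PRKCQ were under 1 FPKM and not tested. With JIB-04 the mean of PRKCI was level with that of PRKCB, whereas in vehicle PRKCB was the higher.

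VRK1 (ENSG00000100749, chromosome 14, 96797304 to 96931722, plus strand) encodes a nuclear serine/threonine kinase of chromatin and cell division. It was at 109, 122, 125 and 143 FPKM in vehicle and at 119, 118, 117 and 125 FPKM with JIB-04. The JIB-04 values all fell inside the vehicle range. The log2 fold change was -0.05 (SE 0.07, 95% interval -0.22 to 0.115, limma adjusted p = 0.538; exact two-sided permutation p = 0.60), and it was 0.11 on the TPM scale (adjusted p = 0.217) and 0.01 without vehicle replicate 4. BANF1, whose protein is a substrate of VRK1 and bridges DNA and the nuclear envelope, fell from 560 ± 29.9 to 255 ± 10.3 FPKM (log2 fold change -1.13, SE 0.05, limma adjusted p = 6.04e-08). The related kinases VRK2 and VRK3 had log2 fold changes of -0.38 and -0.17 (limma adjusted p = 0.025 and 0.017), neither of which passed on the TPM scale (adjusted p = 0.165 and 0.861). The call of VRK2 was also lost without vehicle replicate 4 or JIB-04 replicate 2 or 4 (adjusted p = 0.0532 to 0.069).

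CCK, the 1 secreted peptide among the genes, had the largest change. CCK (ENSG00000187094, chromosome 3, 42257825 to 42266207, minus strand) encodes cholecystokinin, a gut hormone and brain neuropeptide that Ewing Sarcoma cells also make. It was at 12.8, 12.1, 12.1 and 13.5 FPKM in vehicle and at 95.9, 89.2, 81.5 and 88.5 FPKM with JIB-04. The groups lay far apart and each was narrow. The mean rose 7.03-fold, from 12.6 ± 0.694 to 88.8 ± 5.90 FPKM (log2 fold change 2.765, SE 0.07, limma adjusted p = 2.48e-09), at rank 279 among the rises of all tested genes. By level it went from the 45.4th to the 84.4th percentile. The receptors CCKAR and CCKBR were under 1 FPKM on average in both groups, CCKAR at 0.301 and 0.253 FPKM and CCKBR at 0.0277 and 0.0751 FPKM, vehicle first.

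**Figure D2:**
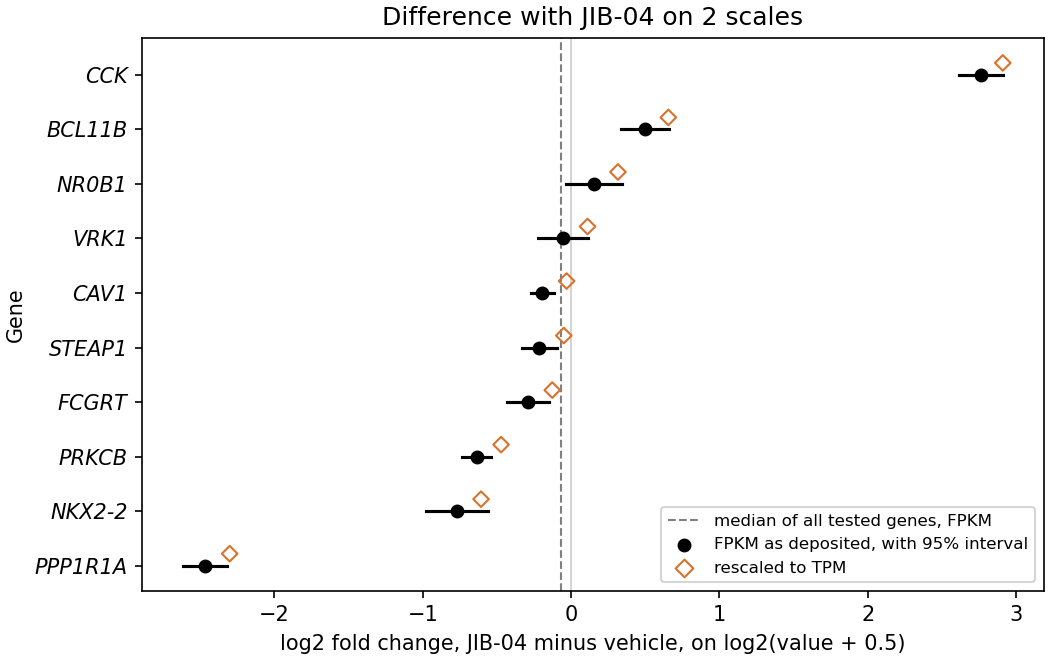
Difference of JIB-04 minus vehicle for each gene on the log2(value + 0.5) scale, with FPKM as filled points and 95% intervals from limma, the TPM value as open diamonds, and the FPKM median of the tested genes as a dashed line (n = 4 per group). CCK, BCL11B, PRKCB, NKX2-2 and PPP1R1A keep their direction on both scales, and the TPM values of CAV1, STEAP1 and FCGRT lie at -0.03, -0.05 and -0.13.

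The 3 genes of the cell surface, STEAP1, FCGRT and CAV1, were each modestly lower in FPKM, and none of the 3 passed on the TPM scale. STEAP1 (ENSG00000164647, chromosome 7, 90154375 to 90164829, plus strand) encodes a membrane protein that is a target for immunotherapy of Ewing Sarcoma and prostate cancer. It was at 182, 198, 198.5 and 208 FPKM in vehicle and at 167, 164, 167 and 181 FPKM with JIB-04. The groups did not overlap, with the highest JIB-04 library just under the lowest vehicle library. The mean went from 196.6 ± 10.45 to 169.5 ± 7.86 FPKM (log2 fold change -0.21, SE 0.05, limma adjusted p = 0.00427), and on the TPM scale from 145 ± 7.86 to 140 ± 7.48 (log2 fold change -0.05, adjusted p = 0.431). STEAP2, a metalloreductase of the same family, had nearly the same difference (log2 fold change -0.21, limma adjusted p = 0.00291, and -0.05 on the TPM scale, adjusted p = 0.407). STEAP3 did not pass (0.14, limma adjusted p = 0.189), though it did on the TPM scale (0.28, adjusted p = 0.0114), and STEAP4 was listed at 0. STEAP1B, a close copy of STEAP1 elsewhere on chromosome 7 that was added after its values were seen, was at 52.3, 51.3, 52.1 and 54.2 FPKM in vehicle and at 19.1, 18.2, 18.9 and 20.9 FPKM with JIB-04 (log2 fold change -1.42, limma adjusted p = 3.45e-08). No source used here says how reads that match both copies were assigned, so the values of the pair are uncertain.

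FCGRT (ENSG00000104870, chromosome 19, 49506816 to 49526333, plus strand) encodes the heavy chain of the neonatal Fc receptor, which rescues IgG and albumin from degradation. It was at 465, 451, 457 and 421 FPKM in vehicle and at 392, 396, 339 and 342 FPKM with JIB-04. As with NKX2-2, JIB-04 replicates 3 and 4 were the lowest, and all 4 were below vehicle. The mean fell from 449 ± 19.1 to 367 ± 31.2 FPKM (log2 fold change -0.29, SE 0.06, limma adjusted p = 0.0022), and on the TPM scale the log2 fold change was -0.13 (adjusted p = 0.0562). B2M, the light chain that the receptor shares with MHC class I, rose from 3716 ± 175 to 5026 ± 444 FPKM (log2 fold change 0.43, SE 0.06, limma adjusted p = 0.000203).

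CAV1 (ENSG00000105974, chromosome 7, 116524785 to 116561184, plus strand) encodes caveolin-1, the scaffold of caveolae, the small pits of the plasma membrane. It was the most abundant of the 10 genes, at 2178, 2124, 2175 and 2299 FPKM in vehicle and at 1988, 1916, 1891 and 1871 FPKM with JIB-04. The groups were separate, by less than the spread within vehicle. The mean fell from 2194 ± 74.2 to 1917 ± 51.3 FPKM (log2 fold change -0.195, SE 0.03, limma adjusted p = 0.000677), and on the TPM scale the log2 fold change was -0.03 (adjusted p = 0.449), while quantile scaling gave 0.05 (adjusted p = 0.217). Its partners moved further. CAV2, which forms mixed oligomers with caveolin-1, fell from 252 ± 11.45 to 142 ± 15.1 FPKM (log2 fold change -0.835, SE 0.07, limma adjusted p = 5.2e-06). CAVIN1, the coat protein that shapes caveolae, was at 12.5, 11.8, 10.7 and 11.45 FPKM in vehicle and at 57.4, 57.9, 51.6 and 53.9 FPKM with JIB-04 (log2 fold change 2.20, SE 0.07, limma adjusted p = 7.64e-09). CAV3, CAVIN2 and CAVIN3 were under 1 FPKM on average and were not tested.

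**Figure D3:**
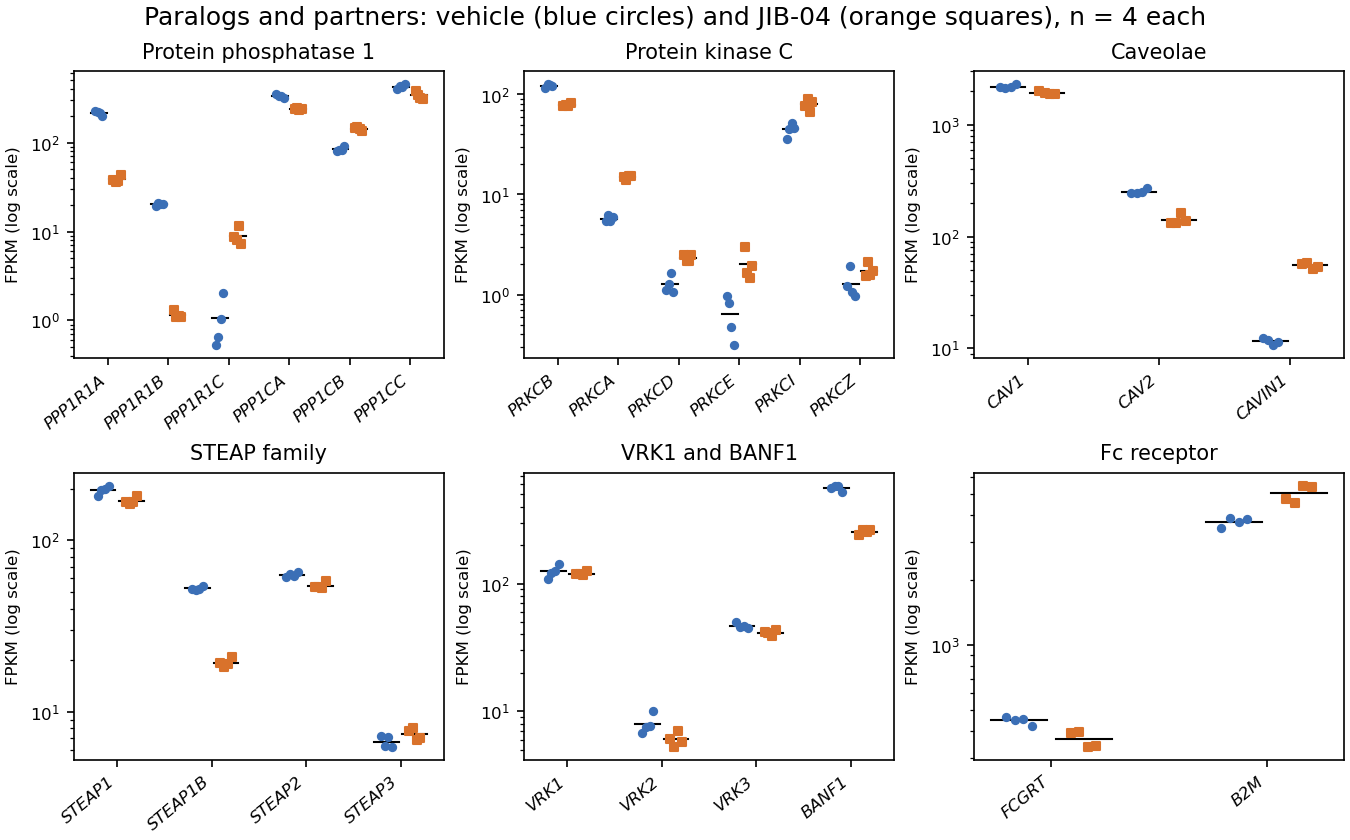
FPKM (log axis) in each library for paralogs and partners in 6 panels, with vehicle as circles, JIB-04 as squares and bars at the group means (n = 4 per group). PPP1R1A and PPP1R1B fall while PPP1R1C rises, PRKCB falls while PRKCA and PRKCI rise, and CAVIN1 rises from a mean of 11.6 to 55.2 FPKM beside CAV1 and CAV2, which are lower.

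Over the 37 paralogs and partners read, 23 were tested, of which 9 were higher and 10 lower, beside 34.2% and 38.0% of all tested genes. On the TPM scale 11 were higher and 6 lower, beside 40.4% and 31.1%. Without PRKCE, 8 of 22 were higher and 10 lower in FPKM. The median log2 fold change of the 23 genes was 0.07, and without PRKCE it was 0.03.

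In the order of the 10 genes by level, PPP1R1A went from place 3 to 9, NR0B1 from 8 to 4 and CCK from 10 to 7, and no other gene moved by more than 1 place. In vehicle the order was CAV1, FCGRT, PPP1R1A, STEAP1, NKX2-2, VRK1, PRKCB, NR0B1, BCL11B and CCK, by FPKM, which is per length. The ranges of PPP1R1A and STEAP1 overlapped there, as did those of VRK1, PRKCB and NR0B1 from each to the next. With JIB-04 the order was CAV1, FCGRT, STEAP1, NR0B1, VRK1, NKX2-2, CCK, PRKCB, PPP1R1A and BCL11B, where the ranges of NR0B1 and VRK1, of NKX2-2 and CCK, and of CCK and PRKCB overlapped. The spread of means between the highest and the lowest gene went from 2194 against 12.6 FPKM to 1917 against 29.1 FPKM.

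The genes that make up the fusion were measured as whole genes, which does not separate fusion transcripts from those of the intact alleles. FLI1, whose 3′ part is in the fusion, was at 58.7, 62.0, 62.35 and 58.4 FPKM in vehicle and at 69.45, 70.4, 74.4 and 71.1 FPKM with JIB-04. It rose without overlap from 60.4 ± 2.10 to 71.3 ± 2.17 FPKM (log2 fold change 0.24, SE 0.04, limma adjusted p = 0.000946, and 0.40 on the TPM scale). EWSR1, whose promoter drives the fusion, went from 268 ± 5.47 to 228 ± 6.35 FPKM (log2 fold change -0.235, SE 0.04, limma adjusted p = 0.000226), a fall that did not pass on the TPM scale (-0.07, adjusted p = 0.117). Of 19 genes of the fusion and its cofactors, all tested, 6 were higher, 10 lower and 3 did not pass. So 16 of 19 were called where 72.2% of all tested genes were, 34.2% as higher and 38.0% as lower. On the TPM scale 7 were higher and 5 lower, where 71.5% of all were called, 40.4% as higher and 31.1% as lower. The acetyltransferase EP300 had the largest rise of the 6 with the smallest adjusted p, from 29.9 ± 0.189 to 71.2 ± 1.59 FPKM (log2 fold change 1.24, limma adjusted p = 1.37e-08). The splicing regulator RBFOX2 rose by a log2 fold change of 0.42. The BAF chromatin remodeling subunits SMARCB1 and SMARCA4 fell (log2 fold changes -0.83 and -0.68), as did WDR5, a subunit of H3K4 methyltransferase complexes (-0.64). Over the list of 19 genes the median was -0.11 on the log2 scale, and 0.052 after rescaling to TPM.

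A wider list of 36 genes that the fusion is known or reported to activate went both ways, as the 10 genes did. Of the 35 tested, 12 were higher, 17 lower and 6 did not pass, with 17 higher and 13 lower on the TPM scale, and MFNG was under 1 FPKM. The shares over all tested genes were 34.2% higher and 38.0% lower, and 40.4% and 31.1% on the TPM scale. At least 2-fold, 2 were higher and 7 lower, where 13.1% and 11.8% of all genes were. On the TPM scale 2 were higher and 4 lower by at least 2-fold, where 2725 and 1453 of the 17460 genes were. Among the 7 are AURKA, AURKB and GLI1, which the study named from these libraries. The list's median was -0.03 on the log2 scale, beside -0.07 for all genes, and it turned to 0.035, 0.069 and 0.012 without vehicle replicate 1, JIB-04 replicate 3 and JIB-04 replicate 4 and to -0.15 without JIB-04 replicate 1. Of the 6 with the smallest adjusted p, EGR2, a zinc finger transcription factor of the growth factor response, rose from 14.3 ± 0.580 to 145 ± 4.30 FPKM (log2 fold change 3.30, SE 0.05, limma adjusted p = 2.55e-10). The other 5 fell. CD99, the surface protein used to diagnose Ewing Sarcoma, fell from 1160 ± 30.5 to 599 ± 24.4 FPKM (log2 fold change -0.95, limma adjusted p = 4.05e-08). AURKB and AURKA, the mitotic kinases, fell by log2 fold changes of -1.465 and -1.15, and the study named both, and GLI1 of the same list, from these libraries, so they are not independent evidence of direction. GSTM4, a glutathione transferase, and ADGRG2, an adhesion receptor, fell by log2 fold changes of -0.98 and -0.87.

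A list of 20 genes that the fusion represses is given beside them for comparison. Of the 19 tested, 16 were higher, 2 (COL3A1 and NR2F2) were lower and 1 (FOXO1) did not pass (it did on the TPM scale, adjusted p = 0.0425), with a median log2 fold change of 1.96, and at least 2-fold 12 were higher, where 34.2% of all tested genes were higher and 13.1% at least 2-fold. IGFBP3, DKK1 and THBS1, with vehicle means under 1 FPKM, reached the filter only through the JIB-04 libraries, where they are high. Without these 3, 13 of 16 genes were higher, 9 of them at least 2-fold, and the median was 1.625. On the TPM scale, with these 3 included, 17 were higher and 2 lower, where 40.4% and 31.1% of all tested genes were. PHLDA1, CDKN1A, TNC, CCN1 and CCN2 rose by log2 fold changes of 3.33, 3.51, 2.44, 2.51 and 1.96. The difference between the lists was not tested. CDKN1A and PDCD4 were named by the study from these libraries, so they are not independent evidence of direction. Both are among the higher genes in every count above and are part of both medians, and no count was made without them.

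**Figure D4:**
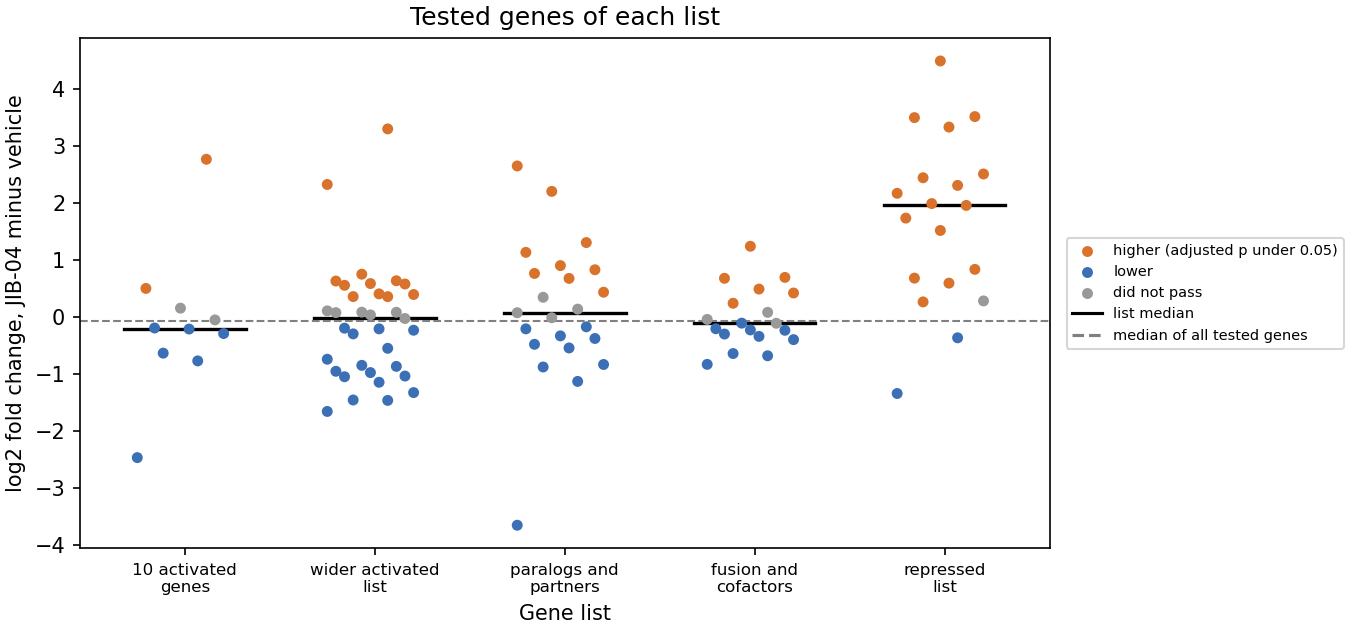
Log2 fold change (JIB-04 minus vehicle, log2(FPKM + 0.5) scale) of every tested gene in 5 lists, colored by whether it was higher, lower or did not pass, with bars at the list medians and a dashed line at the median of all tested genes. The medians are -0.20, -0.03, 0.07, -0.11 and 1.96 from left to right, the last with IGFBP3, DKK1 and THBS1 included.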

How the data were processed

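The data are 8 RNA-seq libraries from A673 cells, 4 per group. The authors aligned reads to GRCh38 with GSNAP, processed alignments with SAMtools and calculated FPKM with Cufflinks, and the deposited FPKM were used as given. The methods describe directional mRNA sequencing, which keeps the strand of the RNA. The annotation release and the strand setting used to calculate FPKM are not given in the sources used here. The labels give single-end reads of 151 bp and the methods 50 cycles. Mapped reads per library are not given either. The most frequent ratio between low FPKM values, each a few reads, put the relative depth between 0.766 (JIB-04 replicate 2) and 1 (vehicle replicate 1). Entries of an identifier listed more than once (117 identifiers) were summed, and 13 genes with a placeholder value were left out. No gene named here was among them.

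limma 3.58.1 (R 4.3.3, eBayes with trend) was applied to log2(FPKM + 0.5) of genes averaging 1 FPKM or more, and p-values were adjusted by Benjamini-Hochberg and called under 0.05. Fold changes on this scale understate those of low genes. Single genes were also tested by an exact permutation test over the 8 libraries. The fit was tested on simulated data. Coordinates are from GENCODE release 29. Older names were matched by identifier. Python 3.11.15 with matplotlib 3.10.9 drew the figures.

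The 10 genes and the other lists were chosen with earlier results of these data known. The genes named were the 10 genes, FLI1, EWSR1, their paralogs and partners, and up to 6 genes of each other list with the smallest adjusted p; STEAP1B, PDE1B, markers and genes that stand out in a small count were named outside this rule. The alternatives were pseudocounts of 0.1 and 1, no filter, a filter of 5 FPKM, TPM, median-ratio and quantile scaling, analysis of variance on FPKM, a replicate block, leaving out each library, and, added after the data were seen, rescaling without mitochondrial RNA. Some items of these lists are not reported here.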

Additional observations from a re-analysis of the deposited data

Results flagged for a closer look

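In a group of 4 libraries, a value was taken up here where it lay far from the other 3 by Dixon's test at the 95% level, which chance gives for about 1 group in 20. Of 126 groups (63 genes, vehicle and JIB-04), 5 did so, and none is of the 10 genes. EP300 was at 68.85 FPKM in JIB-04 replicate 1, below the other JIB-04 libraries at 71.8 to 72.2 FPKM. PPP1R1B was at 1.305 FPKM in JIB-04 replicate 1, above the other JIB-04 libraries at 1.09 to 1.13 FPKM. KRT8 was at 77.2 FPKM in JIB-04 replicate 2, above the other JIB-04 libraries at 69.4 to 69.9 FPKM. In vehicle replicate 3, FOXO1 was at 1.80 FPKM, below the other vehicle libraries at 2.11 to 2.135 FPKM, and SNAP25 was at 3.85 FPKM, below the others at 4.26 to 4.285 FPKM.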

How the results depend on the processing

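Of 63 genes followed across the alternatives, 47 kept their direction and their side of the threshold in every alternative that tested them. For 42 of these that was all 18 alternatives, and the other 5 lay under the filter of 5 FPKM and were tested in 17. Among the 42 were CCK, PPP1R1A, NKX2-2, PRKCB and BCL11B. VRK1, which did not pass in any alternative, changed sign to 0.111 on TPM, 0.008 with median-ratio scaling and 0.029 without mitochondrial RNA, and ran from -0.115 to 0.013 as each library was left out. NKX2-5, which did not pass either, gave 0.143 on TPM, 0.044 with median-ratio scaling, 0.000 with quantile scaling and 0.065 without mitochondrial RNA, and ran from -0.101 to 0.092 as each library was left out. PRKACB ran from -0.017 to 0.174 in the same way. CAV1 lost its call on TPM and with quantile scaling, where it turned to 0.053. STEAP1 and FCGRT lost theirs on TPM alone. NR0B1 passed as higher on TPM, with median-ratio scaling, without mitochondrial RNA and without JIB-04 replicate 3, and its adjusted p over all alternatives ran from 0.00455 to 0.298. The causes were not tested.

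Rescaling to TPM lowered the count of the 10 genes that fell to 3, of paralogs and partners to 6 and of the fusion and cofactor list to 5, and moved the medians to -0.040 for the 10 genes, 0.134 for the wider list, 0.232 for paralogs and partners, 0.052 for the fusion and cofactors and 2.086 for the repressed list. With median-ratio scaling these medians were -0.143, 0.032, 0.133, -0.051 and 2.015, and without mitochondrial RNA -0.121, 0.054, 0.154, -0.030 and 2.036. Quantile scaling gave -0.108 for the 10 genes. The count of the 10 genes that fell was 6 with median-ratio scaling and without mitochondrial RNA, and 5 with quantile scaling. Scaling itself moves every gene of a library. The filter of 5 FPKM, which tests fewer genes, gave -0.094 for paralogs and partners and left 1 repressed gene lower. The repressed median was 1.699 with a pseudocount of 1 and 1.845 with no filter. These repressed medians include IGFBP3, DKK1 and THBS1, which reached the filter of 1 FPKM only through the JIB-04 libraries. The median of the wider list ran from -0.146 to 0.069 as each library was left out.

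The deviations of same-numbered libraries correlated at -0.06 to 0.08, and those of other pairs at -0.14 to 0.10. No pairing by replicate number was seen in these values, which cannot show how the samples were set up. With a replicate block, 8 of the 10 genes were again called, 2 higher and 6 lower, as were 28 genes of the wider list against 29 and 15 of the fusion and cofactors against 16, the call of PDE1B was lost, and 12518 of all genes were called against 12604. Depth is known only relative to 1 library, so the error of each value comes from the spread between libraries.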
